A study of Mus musculus with 10 samples.

Results

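The levels of 10 imprinted genes (H19, Igf2, Meg3, Dlk1, Rian, Mirg, Ndn, Peg3, Plagl1 and Grb10) were examined in CD34- hematopoietic stem cells (HSCs). The genes were taken by their symbols from the deposited transcript values, in which 56 transcripts carry one of these names, and they are 10 of 33393 genes with a value above 0 in any library. The cells were sorted from bone marrow of 8-week C57BL/6 mice as lineage-negative, Sca-1+, c-Kit+, CD34- and Flt3- cells. Controls were Reg1flox/flox mice, in which both copies of the Regnase-1 gene (Zc3h12a, an RNase that degrades mRNA) carry loxP sites but no Cre is present. The other mice were Vav1-iCre; Reg1flox/flox (Reg1Δ/Δ), in which Cre is driven by vav elements throughout blood cells, so the deletion is not limited to stem cells or to the adult. The sample names fall into 2 experiments, with 3 libraries per genotype in the first and 2 per genotype in the second. The labels do not say whether each library came from 1 mouse or from several, so p-values measure the spread between these libraries.

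An imprinted gene is transcribed mainly from the copy inherited from 1 parent, because DNA methylation laid down in the germ line marks the maternal and the paternal copy differently. Many imprinted genes act on growth, and in adult bone marrow several of them are known from the most immature, quiescent stem cells and are switched down as cells mature. Among the 10 genes, Igf2, Dlk1, Ndn, Peg3 and Plagl1 are known to be expressed from the paternal copy, and H19, Meg3, Rian, Mirg and Grb10 from the maternal copy in most tissues. Reads were not assigned to parental copies, so the values are the sum of both.

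The sorted cells were checked against known markers, and the labelled genotype against its own gene. Zc3h12a was higher, not lower, in the libraries labelled Reg1Δ/Δ (log2 fold change 0.83, standard error 0.28, limma adjusted p = 0.0314). This call was lost without control replicate 2 (adjusted p = 0.0595) or replicate 1 of Reg1Δ/Δ (0.0680) of the first experiment, and without replicate 1 (0.0768) or 2 (0.0662) of Reg1Δ/Δ of the second. It was also lost in the first experiment alone (limma adjusted p = 0.0527), in the second alone (0.265) and without a filter on low values (0.0897). Scaling made it larger, at 1.73 with quantile normalization (limma adjusted p = 0.000174) and 1.08 with median-of-ratios scaling (0.00629). Every library labelled Reg1Δ/Δ lay above every control of its experiment (two-sided exact permutation p = 0.0167, the smallest the design allows). The values do not show which exons were read, so the deleted part cannot be judged, and genotypes are given below as labelled. Of 10 HSC markers, 9 could be tested and 8 were lower in the libraries labelled Reg1Δ/Δ, beside 37.9% of all genes tested. Procr (EPCR) had 19.8 to 37.3 TPM in the controls and 0.108 to 1.36 TPM in the libraries labelled Reg1Δ/Δ, and Hlf, a transcription factor of stem cells, had 33.9 to 176 and 0.791 to 2.72 TPM. Procr and Hlf, which mark the most immature cells, were thus low in the libraries labelled Reg1Δ/Δ, and the controls also held RNA of Cd34, at 51.9 to 236 TPM, although the sort excluded cells with the CD34 protein.

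TPM, a unit scaled to the same total in every library, is a relative abundance per transcript length, so levels can be compared between genes, but it keeps no read number. The depth of the libraries is therefore unknown, no counting interval can be given, and a value of 0 is written as listed at 0. In the controls, Grb10 was the most abundant of the 10 genes (19.8 ± 4.28 TPM, SD, n = 5), followed by Ndn (7.82 ± 2.26 TPM, SD, n = 5). The lowest control value of Grb10, 15.7 TPM, lay above the highest of Ndn, 10.4 TPM, and the lowest of Ndn, 5.97 TPM, lay above the highest of Rian, 4.78 TPM. H19 lay above Ndn in 1 control, replicate 2 of the second experiment (6.98 against 6.40 TPM). Rian (2.80 ± 1.73 TPM), H19 (2.04 ± 2.91 TPM), Dlk1 (1.70 ± 0.61 TPM), Igf2 (1.35 ± 0.45 TPM) and Meg3 (0.756 ± 0.533 TPM, each SD, n = 5) came next, and the ranges of neighbours in this order overlapped. Plagl1, Peg3 and Mirg were under 1 TPM in all 5 controls and are too low to judge. In terms of all 33393 genes, the control level of Ndn lay above 71.1% of them and its level in the libraries labelled Reg1Δ/Δ above 43.0%, while Grb10 stayed at 81.0% and 76.2%.

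**Figure D1:**
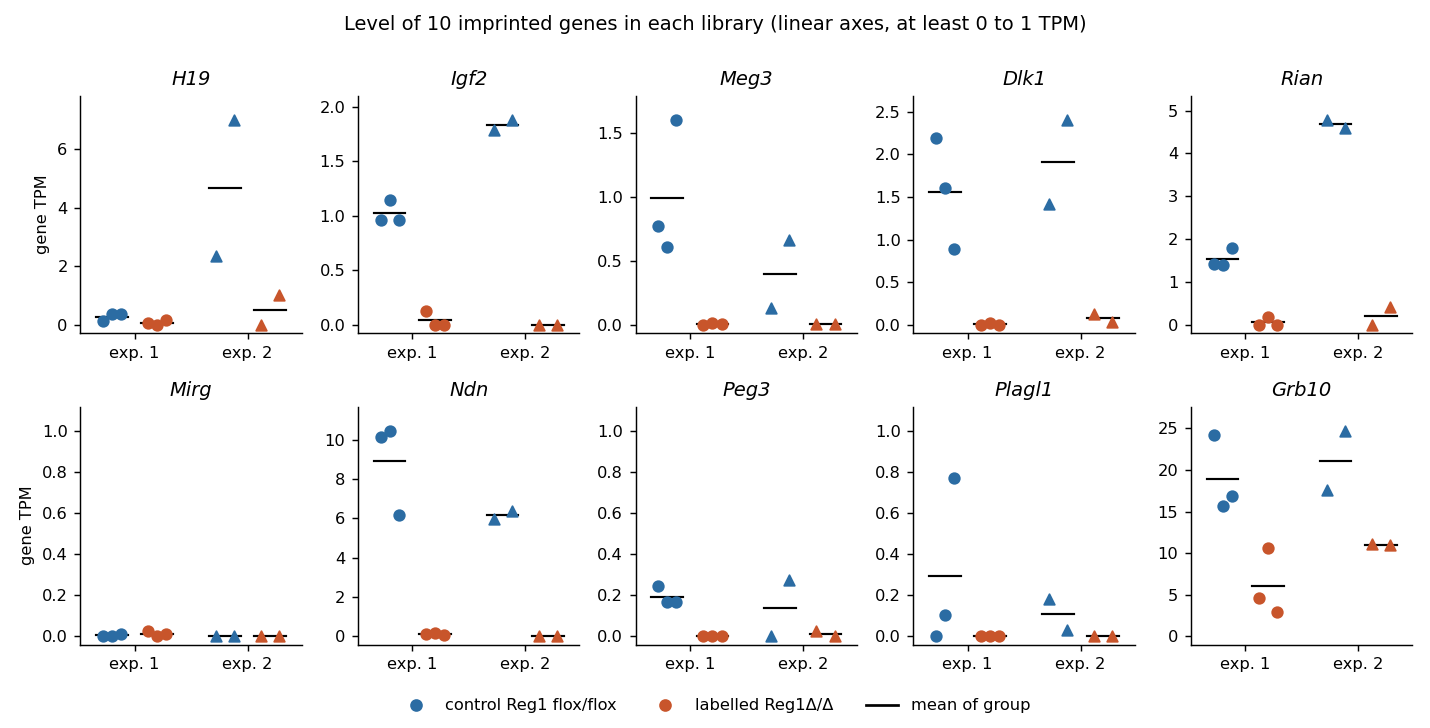
Gene TPM (linear axis) of each of the 10 imprinted genes in every library, in experiment 1 (circles) and experiment 2 (triangles), with the mean of each group as a black line. Igf2, Meg3, Dlk1, Rian, Ndn and Grb10 show no overlap of the genotypes within either experiment, whereas H19 overlaps in experiment 1 and Mirg, Peg3 and Plagl1 stay under 1 TPM.

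Ndn encodes Necdin, a protein of the MAGE family that binds E2F1 and p53 and is known to restrain cell division, in HSCs too. It is a gene of a single exon on chromosome 7 (GRCm38, 62346569 to 62350262, plus strand). In experiment 1 it had 10.1, 10.4 and 6.16 TPM in the controls and 0.128, 0.173 and 0.0849 TPM in the libraries labelled Reg1Δ/Δ. In experiment 2 it had 5.97 and 6.40 TPM in the controls, and 1 library labelled Reg1Δ/Δ was listed at 0 and the other had 0.0217 TPM. The genotypes were far apart in both experiments, and the means of experiment 1 differed 69.3-fold (8.91 ± 2.39 against 0.129 ± 0.044 TPM, SD, n = 3). The log2 fold change of TPM + 1 was -2.99 (standard error 0.14, limma adjusted p = 4.59e-07), a scale that understates the change of a gene so low. Only the controls reached the 1 TPM needed for the test, so this call is not read as support.

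Grb10 encodes an adaptor protein that binds the insulin and IGF-1 receptors and dampens their signal. The gene lies on chromosome 11 (11930508 to 12038683, minus strand). In the first experiment it measured 24.2, 15.7 and 16.9 TPM in the controls and 4.58, 10.6 and 2.91 TPM in the libraries labelled Reg1Δ/Δ. In the second it measured 17.6 and 24.6 TPM in the controls and 11.1 and 10.95 TPM in the libraries labelled Reg1Δ/Δ. Every library labelled Reg1Δ/Δ was below every control of its experiment, and Grb10 stayed well expressed, with means 3.15-fold lower in the first experiment and 1.92-fold lower in the second. Replicate 2 of Reg1Δ/Δ in the first experiment, with 10.6 TPM, stood apart from the other 2, also with the lowest HSC marker sum of the 3 (187 TPM, against up to 565 TPM), and without it the fold of the first experiment was 5.06. The log2 fold change was -1.33 (standard error 0.30, limma adjusted p = 0.00417). In the second experiment alone the change did not pass the threshold (log2 fold change -0.86, limma adjusted p = 0.0927).

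Of the other members, Dlk1, Meg3, Rian and Mirg lie in this order within 0.3 Mb of chromosome 12, in the Dlk1-Dio3 cluster, where Dlk1 is read from the paternal copy and the noncoding RNAs Meg3 (Gtl2), Rian and Mirg from the maternal copy. Dlk1 encodes a transmembrane protein of the Delta-like family. Rian hosts C/D-box small nucleolar RNAs and microRNAs, and Mirg hosts a further group of microRNAs. The control libraries had 1.41, 1.41 and 1.79 TPM of Rian in experiment 1 and 4.78 and 4.59 TPM in experiment 2. Of the 5 libraries labelled Reg1Δ/Δ, 1 in the first experiment had 0.186 TPM, 1 in the second had 0.426 TPM and the other 3 were listed at 0. The genotypes did not overlap, and the log2 fold change was -1.66 (standard error 0.20, limma adjusted p = 9.7e-05). As for Ndn, only the controls reached the level needed for the test, so this call is not read as support.

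For Dlk1, the control libraries had 2.19, 1.60 and 0.885 TPM in experiment 1 and 1.42 and 2.4 TPM in experiment 2. The libraries labelled Reg1Δ/Δ ranged from 0 to 0.0256 TPM in the first experiment and had 0.131 and 0.0408 TPM in the second, again without overlap. Meg3 was lower still in the controls, at 0.774, 0.608 and 1.60 TPM in the first experiment and at 0.132 and 0.663 TPM in the second. Its highest value in any library labelled Reg1Δ/Δ was 0.0128 TPM. Mirg, the most distal of the 4 genes, did not exceed 0.026 TPM in any library of either genotype, so its host transcript was at or near 0 in the controls too. Meg3 was under 1 TPM in 4 of 5 controls, too low for the limma test.

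The sequences before the start sites are printed for Dlk1 and Meg3, 2 genes of this cluster read from opposite copies, and for Grb10, the most abundant member. They are the 250 bases before the most upstream RefSeq start site of each gene on GRCm38.p6, 5′ to 3′ on the strand of the gene, with each CpG, the site of DNA methylation, in capitals. The windows are chr12:109452573-109452822 (plus strand) for Dlk1, chr12:109540746-109540995 (plus strand) for Meg3 and chr11:12037421-12037670 (minus strand) for Grb10.
Dlk1: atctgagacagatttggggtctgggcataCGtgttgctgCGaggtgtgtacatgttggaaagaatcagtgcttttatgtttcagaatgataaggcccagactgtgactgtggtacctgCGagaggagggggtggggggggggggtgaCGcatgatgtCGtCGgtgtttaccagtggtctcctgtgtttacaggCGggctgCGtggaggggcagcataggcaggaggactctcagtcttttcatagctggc
Meg3: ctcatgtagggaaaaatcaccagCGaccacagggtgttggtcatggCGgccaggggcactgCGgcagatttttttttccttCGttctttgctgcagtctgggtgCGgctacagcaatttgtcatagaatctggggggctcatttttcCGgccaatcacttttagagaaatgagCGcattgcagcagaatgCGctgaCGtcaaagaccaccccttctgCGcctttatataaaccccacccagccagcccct
Grb10: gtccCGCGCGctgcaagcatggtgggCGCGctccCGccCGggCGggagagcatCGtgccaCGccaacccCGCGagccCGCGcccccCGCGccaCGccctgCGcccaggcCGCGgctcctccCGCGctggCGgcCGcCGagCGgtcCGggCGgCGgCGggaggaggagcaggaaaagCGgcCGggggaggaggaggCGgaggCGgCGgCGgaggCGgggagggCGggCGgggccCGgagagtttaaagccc
The Grb10 window holds 40 CpG, more than 98.7% of the 32851 RefSeq promoter windows of this length, whose median was 6. The windows of Dlk1 and Meg3 hold 8 and 10. Grb10 and Meg3 each have another RefSeq start site further downstream, and the windows before those hold 8 and 0 CpG. None of the 3 contains AGATAA, a form of the letters bound by GATA factors, on either strand, which 9.99% of all windows hold. The Dlk1 window holds another form, tgataa, which was not counted over all windows. CAGCTG, the letters of a palindromic E-box, which 13% of all windows hold, is absent from all 3. So is the E-box variant CAGATG, held by 14.4%. No methylation was measured in these libraries.

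H19 and Igf2 are neighbours on chromosome 7 (142575529 to 142578143 and 142650766 to 142666816, both on the minus strand) and share enhancers. H19 is a noncoding RNA that limits growth and is the host of miR-675, and Igf2 encodes the growth factor IGF-II, a ligand of the IGF-1 receptor, and hosts miR-483. Igf2 was at 0.959, 1.14 and 0.967 TPM in the experiment 1 controls and at 1.78 and 1.88 TPM in those of experiment 2. Only 1 library labelled Reg1Δ/Δ, in the first experiment, had a value above 0 (0.132 TPM), and the other 4 were listed at 0. The level was low but close between replicates, and the genotypes were well apart. For H19, the experiment 1 controls had 0.124, 0.368 and 0.373 TPM and the libraries labelled Reg1Δ/Δ had 0.0596, 0 and 0.185 TPM, ranges that overlap. In the second experiment the controls were higher, at 2.36 and 6.98 TPM, and the libraries labelled Reg1Δ/Δ had 0 and 1.01 TPM. The 2 controls of the second experiment lay above both other libraries but differed widely from each other.

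The microRNAs hosted by H19, Igf2 and Rian are printed because their host transcripts were measured here, although the mature microRNAs were not. They are RefSeq mature sequences, 5′ to 3′, with the seed (bases 2 to 8) in capitals, first from H19, then from Igf2, then from Rian.
miR-675-3p: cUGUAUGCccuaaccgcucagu
miR-675-5p: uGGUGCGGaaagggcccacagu
miR-483-3p: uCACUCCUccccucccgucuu
miR-483-5p: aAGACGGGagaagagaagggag
miR-341-5p: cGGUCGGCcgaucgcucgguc
miR-341-3p: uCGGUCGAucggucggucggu
miR-1188-5p: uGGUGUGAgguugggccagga
miR-1188-3p: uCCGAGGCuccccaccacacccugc
miR-370-5p: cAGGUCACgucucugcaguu
miR-370-3p: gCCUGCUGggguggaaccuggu
No 2 of these 10 share a seed.

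Peg3, Plagl1 and Mirg complete the set. Peg3 encodes a zinc finger protein linked to p53 and apoptosis, and its values in the controls lay between 0 and 0.274 TPM, with at most 0.0258 TPM in the libraries labelled Reg1Δ/Δ. Plagl1 (Zac1) encodes a zinc finger factor that arrests the cell cycle. It had up to 0.774 TPM in the controls and was listed at 0 in 1 control and in all 5 libraries labelled Reg1Δ/Δ. At such levels neither gene can be compared between genotypes.

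In terms of counts, 6 of the 10 genes (Igf2, Meg3, Dlk1, Rian, Ndn and Grb10) had every library labelled Reg1Δ/Δ below every control of its experiment, against 16.5% of the 33393 genes. Each of these 6 had p = 0.0167 in a two-sided exact permutation test within experiments, the smallest p that the 120 assignments allow, among 10 such tests. H19 had p = 0.0333, Peg3 0.05, Plagl1 0.0667 and Mirg 0.7 in the same exact test. Of the paternally expressed genes 3 of 5 were among the 6, and of the maternally expressed genes also 3 of 5. For the limma fit, genes had to reach 1 TPM in 5 or more libraries, which left 12874 genes and the 3 members Rian, Ndn and Grb10. All 3 were lower, as were 37.9% of all genes tested, while 15% were higher. Rian and Ndn passed this filter through the 5 controls alone, so their call is not read as support. Without any filter, 7 of 10 members were lower (all but H19, Plagl1 and Mirg, and with Peg3 at a level too low to judge), against 16.7% of 33393 genes, with a median log2 fold change of -1.04 against -0.065 for all genes. The 33393 genes include all those below the filter, which have little room to fall on this scale. Among the 12874 that passed it, 37.9% were lower and the median was -0.25.

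The median of all genes tested was itself shifted, at -0.25 on the log2 scale. Grb10, the 1 member above 1 TPM in all 10 libraries, had a log2 fold change of -1.33 beside it. With quantile normalization this median moved to 0.14 and with median-of-ratios scaling to 0.050. The balance of all calls moved with it, from 1933 genes higher and 4880 lower to 3861 and 2636 with quantile normalization and to 3973 and 3425 with median-of-ratios scaling. The 3 members had negative values in both, those of Rian and Ndn as a description. Quantile normalization gave log2 fold changes of -2.25 for Ndn, -0.76 for Rian and -0.83 for Grb10 (limma adjusted p = 2.37e-05, 0.0167 and 0.0252). With a filter on the mean over all 10 libraries (at least 0.5 TPM), 6 members were tested. Igf2 (log2 fold change -1.17, limma adjusted p = 9.39e-05) and Dlk1 (-1.35, limma adjusted p = 0.000167) were then called lower beside the 3 above, and H19 (-0.90, limma adjusted p = 0.0762) was not. Igf2 and Dlk1 reached this mean through the controls alone, so these calls are not read as support either.

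Within the experiments, Rian, Ndn and Grb10 were lower in the first alone, where 38.3% of all genes tested were called lower. In the second alone, Rian and Ndn were called lower, where 12.3% of all genes were. The calls of Rian and Ndn, which passed the filter through the controls alone, are a description in both. A direct test of the difference between the experiments (interaction in limma) passed the threshold for none of the 3. The adjusted p of limma was 0.177 for Rian, 0.748 for Ndn and 0.641 for Grb10, and the unadjusted limma p of Rian was 0.00405. That value is a difference on the log2(TPM + 1) scale, where the lower level of Rian in experiment 1 makes the change smaller, and no fold is compared between the experiments, since 1 library above 0 carries each mean of the libraries labelled Reg1Δ/Δ.

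The experiments also differed in which transcripts of a gene held its TPM. Transcripts under 1000 bases held 75.1% to 76.8% of the total TPM of a library in the first experiment and 55.3% to 59.6% in the second. For Grb10 in the controls, these shares were 61.5% to 73.4% and 7.70% to 14.1%. The longest coding transcript, of 5061 bases, had 3.10 to 3.45 TPM in the controls and 0.776 to 1.65 TPM in the libraries labelled Reg1Δ/Δ of the first experiment. In the second it held most of the gene, with 11.7 and 22.7 TPM in the controls and 10.7 and 10.95 TPM in the libraries labelled Reg1Δ/Δ, so that 1 control lay close to them. A coding transcript of 430 bases ranged from 4.98 to 10.95 TPM in the experiment 1 controls and was listed at 0 in all 4 libraries of the second. Igf2 showed the same contrast, with at least 90.2% of its control TPM in short transcripts in the first experiment and at most 4.70% in the second. For Rian the share was at least 97.2% in the experiment 1 controls, and it was 73.4% and 1.55% in the 2 controls of experiment 2, so 1 of them stood apart from the other. Ndn, with a single transcript of 3694 bases, could not shift in this way.

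**Figure D2:**
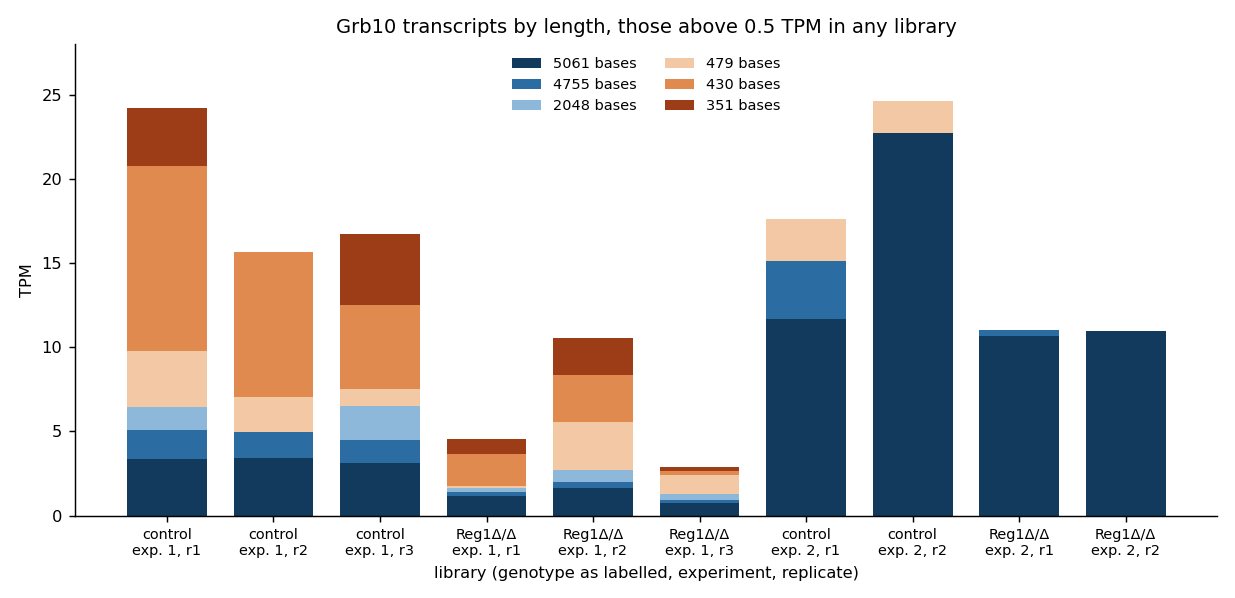
TPM (linear axis) of the Grb10 transcripts above 0.5 TPM in any library, stacked by length, for each of the 10 libraries. In experiment 1 transcripts of 351 to 479 bases hold most of the bar, and in experiment 2 the transcript of 5061 bases does, at 10.7 to 22.7 TPM.

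Neighbouring genes were taken up to 500 kb on either side of 4 loci. Around Dlk1-Dio3, 8 genes other than the members were tested and none was lower, while Hsp90aa1, a heat shock chaperone 1238 kb from the start of Dlk1, was higher (log2 fold change 0.69, limma adjusted p = 0.00055). At an unadjusted limma p under 0.05, the number lower was also 0. Around H19 and Igf2, 2 of 9 genes were lower, a share under the 37.9% of all genes tested. These were Lsp1, an actin-binding protein of leukocytes (252 to 19.2 TPM on average, log2 fold change -3.79, limma adjusted p = 5.34e-07), and Tnni2, a muscle troponin (log2 fold change -2.45, limma adjusted p = 2.12e-05). Tnni2 averaged 0.387 and 0 TPM in the libraries labelled Reg1Δ/Δ of the 2 experiments, so it passed the filter largely through the controls. Mrpl23, the gene next to H19 that encodes a mitochondrial ribosomal protein, had a log2 fold change of 0.48 (limma adjusted p = 0.347) and Ctsd, encoding cathepsin D, one of -0.063 (limma adjusted p = 0.671). Around Grb10, 2 of 6 genes were lower and 1 was higher, again near the shares of all genes tested (37.9% and 15%). Ddc, the aromatic amino acid decarboxylase next to Grb10, fell by 1.56 on the log2 scale (limma adjusted p = 4.76e-06), and Ikzf1, the lymphoid transcription factor Ikaros, rose by 0.92 (limma adjusted p = 0.00771). Ddc averaged 0.0223 and 0 TPM in the libraries labelled Reg1Δ/Δ of the 2 experiments. It passed the filter through the controls alone, so its call is not read as support. Zpbp had a log2 fold change of -0.39 (limma adjusted p = 0.0413). Its call was lost, at adjusted p of 0.0530 to 0.101, without any 1 control of the first experiment, replicate 1 of the controls of the second, replicate 1 or 3 of Reg1Δ/Δ of the first, or either library of Reg1Δ/Δ of the second, and its sign turned with quantile normalization. No other gene within 500 kb of Ndn could be tested.

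**Figure D3:**
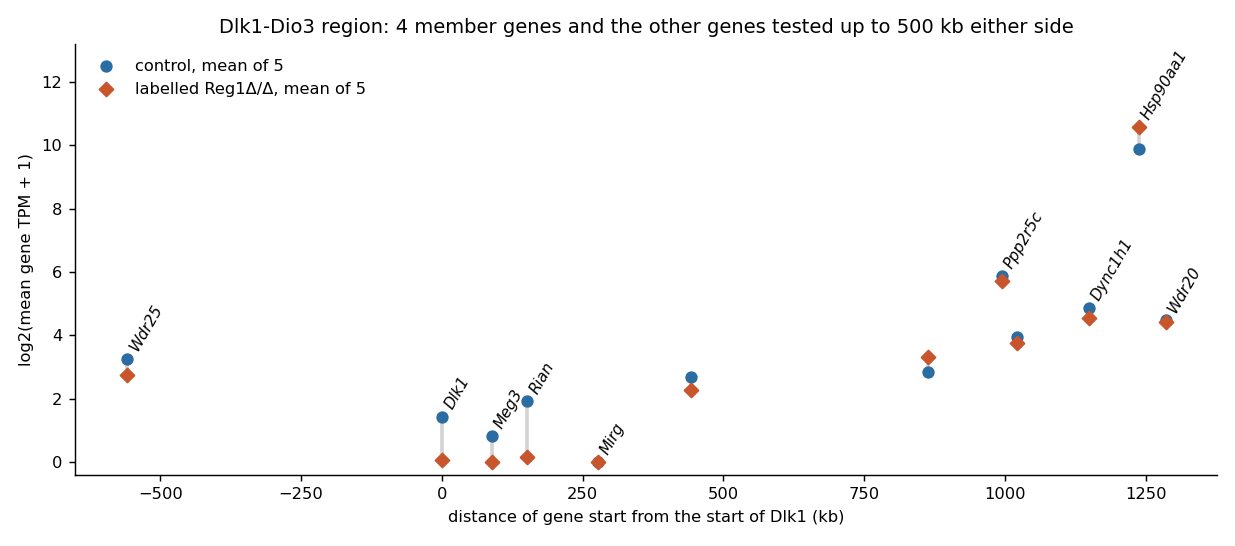
Mean level as log2(mean TPM + 1) in 5 controls (circles) and 5 libraries labelled Reg1Δ/Δ (diamonds) against the distance of each gene start from the start of Dlk1 in kb, for the 4 member genes and the 8 other genes tested. Dlk1, Meg3 and Rian are near 0 in the libraries labelled Reg1Δ/Δ, Mirg is at or near 0 in both, and of the others only Hsp90aa1 passed the test; the 3 points without a name are 2 pseudogenes and a processed transcript.

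Other imprinted genes were read from lists of 27 paternally and 36 maternally expressed genes. In all, 59 of these 63 were in the files and 32 could be tested, of which 18 were lower, 2 were higher and 12 did not pass the test. The median of the 32 was -0.48 on the log2 scale, beside -0.25 for all genes tested, of which 37.9% were lower and 15% higher. Among paternally expressed genes 5 of 8 were lower and none was higher, and among maternally expressed genes 13 of 24 were lower and 2 were higher. With quantile normalization, 11 of the 32 were lower and 7 higher, beside 2636 lower and 3861 higher of all 12874 genes tested. Cdkn1c, which encodes the cyclin-dependent kinase inhibitor p57 and is known for its role in HSC quiescence, had 11.3 to 22.1 TPM in the controls and 0.468 to 1.58 TPM in the libraries labelled Reg1Δ/Δ (log2 fold change -3.28, standard error 0.21, limma adjusted p = 2.02e-06). Peg13, a noncoding RNA, fell by 2.70 and Sgce, encoding epsilon-sarcoglycan, by 2.69 on the log2 scale, both from the paternal copy. Osbpl5, encoding a lipid transfer protein, fell by 2.59, Atp10a, encoding a phospholipid flippase, by 1.43, and Impact, a regulator of translation, by 1.15. Osbpl5 and Mcts2, both among the 18, passed the filter through the controls alone (at most 0.867 and 0.597 TPM in the libraries labelled Reg1Δ/Δ). Their calls are not read as support. Ampd3, encoding an AMP deaminase of red cells, rose by 1.04 (limma adjusted p = 0.00675) and Pon2, encoding a paraoxonase, by 0.68 (limma adjusted p = 0.00325).

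**Figure D4:**
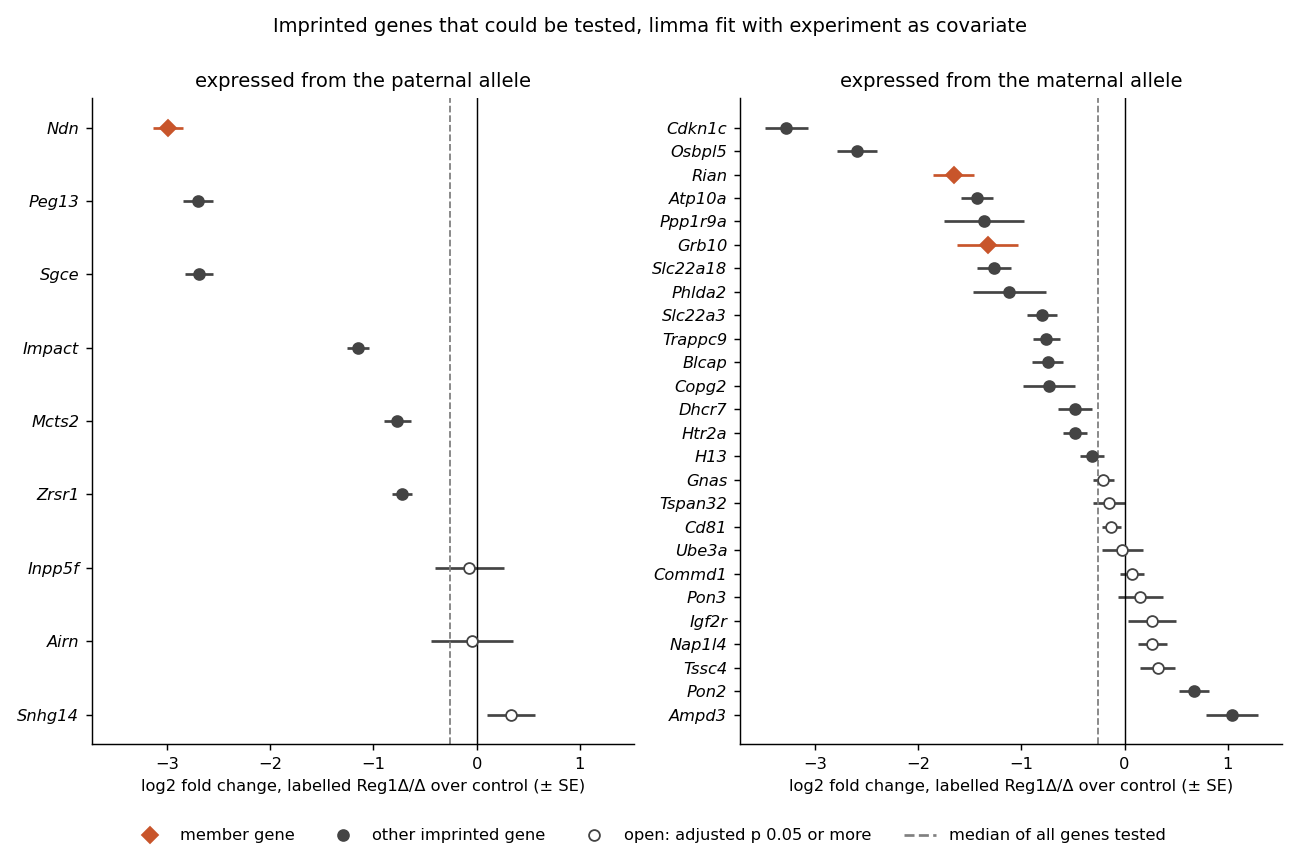
Log2 fold change of TPM + 1 (libraries labelled Reg1Δ/Δ over controls, ± standard error) of the 3 member genes (diamonds) and the 32 other imprinted genes tested (circles), by parental allele, with open circles for adjusted p of 0.05 or more. Ndn, at -2.99, is the lowest of the paternally expressed genes, Rian and Grb10 are among the lower maternally expressed genes, and the dashed line is the median of all genes tested, -0.25.

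The genes most like each tested member were found by Pearson's r of log2(TPM + 1) over the 10 libraries, with the mean of each experiment removed, a measure that any gene with a large difference between genotypes will meet. For Ndn these were Sgce and Ralgds (r = 0.998 for both), and for Rian Col4a2 (r = 0.991) and Fam189b (r = 0.990). For Grb10 they were Msrb2 (r = 0.986) and Diaph1 (r = 0.975). All 6 were lower in the libraries labelled Reg1Δ/Δ (limma adjusted p of at most 0.00293). No p-value is given for r, since the 10 libraries share their genotype groups.

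Factors that maintain imprints were examined as a list of 17 genes, of which 13 could be tested, 6 were lower and none was higher, with a median log2 fold change of -0.36, beside 37.9% lower among all genes tested. With quantile normalization 4 were lower and 1 was higher, beside 2636 lower and 3861 higher of all 12874 genes tested. The changes of the 6 ranged from -1.94 for Tet1, an enzyme that oxidizes methylated cytosine, to -0.36 for Ctcf. Among them, Dnmt3b, a de novo methyltransferase, fell by 0.97 (limma adjusted p = 0.00115), and these examples were chosen after their values were seen. Zfp57, the zinc finger protein that holds methylation at imprinted regions, had 4.18, 1.16 and 2.59 TPM in the controls and 0.0226, 0.443 and 0.0335 TPM in the libraries labelled Reg1Δ/Δ of the first experiment. In the second the controls had 0.279 and 2.26 TPM and both other libraries were listed at 0. It stayed below the filter, without overlap of the genotypes. Its cofactor Trim28 (log2 fold change 0.061, limma adjusted p = 0.703), the maintenance methyltransferase Dnmt1 (-0.23, limma adjusted p = 0.117) and Uhrf1, which recruits it (-0.23, limma adjusted p = 0.152), did not pass the test, and Dnmt1 (0.11) and Uhrf1 (0.12) turned in sign with median-of-ratios scaling. Dnmt1 passed without replicate 1 of the controls of the second experiment (limma adjusted p = 0.0353), and Trim28 was called higher with median-of-ratios scaling (0.41, limma adjusted p = 0.00758). Ctcf, the insulator protein of the H19-Igf2 locus, fell by 0.36 (limma adjusted p = 0.00513), a change that median-of-ratios scaling reduced to -0.014 (limma adjusted p = 0.887). Dppa3 stayed under 1 TPM in every library.

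Igf2 and Grb10 act on the IGF and insulin pathway, in which ligands bind the receptors Igf1r and Insr and the adaptors Irs1 and Irs2 pass the signal to PI3K, AKT and mTOR. Of 31 genes listed for this pathway, 22 could be tested, 13 were lower and 2 were higher, with a median log2 fold change of -0.81, beside 37.9% lower and 15% higher among all genes tested. With quantile normalization 9 were lower and 3 higher, with a median of -0.27, beside 2636 lower and 3861 higher of all 12874 genes tested. Both receptors were lower. Igf1r fell by 0.84 (limma adjusted p = 0.000338) and Insr by 1.27 (limma adjusted p = 5.95e-05), although with quantile normalization Igf1r had -0.12 (limma adjusted p = 0.465). Igf2r, the maternally expressed receptor that removes IGF-II, had a log2 fold change of 0.27 (limma adjusted p = 0.361) and was called higher with quantile normalization (1.16, limma adjusted p = 0.00766). The adaptor Irs1 had at most 0.0805 TPM. Irs2 rose by 0.63 (limma adjusted p = 0.0271), a call that was lost, at adjusted p of 0.0544 to 0.0668, without control replicate 1 or 3 or Reg1Δ/Δ replicate 2 or 3 of the first experiment, or replicate 1 of either genotype of the second. Mtor itself had 0.23 (limma adjusted p = 0.111), and 1.01 with quantile normalization (limma adjusted p = 6.04e-05). Of the RNA-binding proteins of Igf2 mRNA, Igf2bp2 fell by 1.90 (limma adjusted p = 1.18e-05). Igf2bp1 and Igf2bp3 stayed below the filter with means of 0.283 and 1.85 TPM in the controls and 0.0768 and 0.265 TPM in the libraries labelled Reg1Δ/Δ. Igf2bp2 and Igfbp7, both among the 13, had at most 0.762 and 0.408 TPM in those libraries. They passed the filter through the controls alone, so their calls are not read as support.

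Most marker lists moved together with the members, but the erythroid and cell cycle lists, given below, did not. The summed level of the 10 genes was 29.7 to 47.9 TPM in the controls and 3.20 to 12.5 TPM in the libraries labelled Reg1Δ/Δ. In bulk samples, fewer cells of a type and less RNA per cell cannot be told apart, and how far a change in the sorted population sets these levels was not tested. The summed level of the 10 HSC markers was 347 to 874 TPM in the controls and 183 to 565 TPM in the libraries labelled Reg1Δ/Δ, with ranges apart within each experiment. Of endothelial markers, which stem cells share in part, 3 of 3 tested genes were lower, with sums of 49.3 to 100.7 TPM against 3.79 to 5.40 TPM and Cdh5 listed at 0 in every library labelled Reg1Δ/Δ. Stromal cells, which a sort for c-Kit+ cells should leave out, are another known source of Igf2, H19 and Dlk1. Their markers summed to 6.88 to 18.7 TPM against 1.11 to 2.57 TPM, 1 of 8 could be tested and was lower, and Col3a1 was listed at 0 in every library labelled Reg1Δ/Δ and did not exceed 0.0466 TPM in a control. The 8 B lineage markers summed to 168 to 1362 TPM in the controls and 2.75 to 21.7 TPM in the libraries labelled Reg1Δ/Δ, with 7 of 7 tested genes lower. In the control with the sum of 168 TPM, replicate 1 of the first experiment, the 10 imprinted genes summed to 40.1 TPM, H19 and Igf2 had their lowest control values and Plagl1 was listed at 0.

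Of the remaining lists, the gate-negative genes Cd34 and Flt3 were lower, as were 5 of 8 neutrophil, 4 of 4 megakaryocyte, 2 of 2 macrophage and 1 of 1 T and NK genes tested, beside 37.9% of all genes tested. Erythroid markers went both ways, with 3 of 6 higher (Klf1, Epor and Car1) and 2 lower (Hba-a1 and Hbb-bs). Their sum was higher in both experiments. In the first it was 2185 to 4236 TPM in the controls and 8123 to 8877 TPM in the libraries labelled Reg1Δ/Δ. In the second it was 4286 to 5461 TPM and 6857 to 6862 TPM. Car1, carbonic anhydrase of early red cells, had 505 to 2709 TPM in the controls and 6028 to 8301 TPM in the libraries labelled Reg1Δ/Δ. Cell cycle markers were higher in 4 of 9 and lower in none, beside 15% higher among all genes tested. The number higher was 1 with quantile normalization, beside 3861 of all 12874 genes tested. With median-of-ratios scaling it was 7, beside 3973 of all genes tested.

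**Figure D5:**
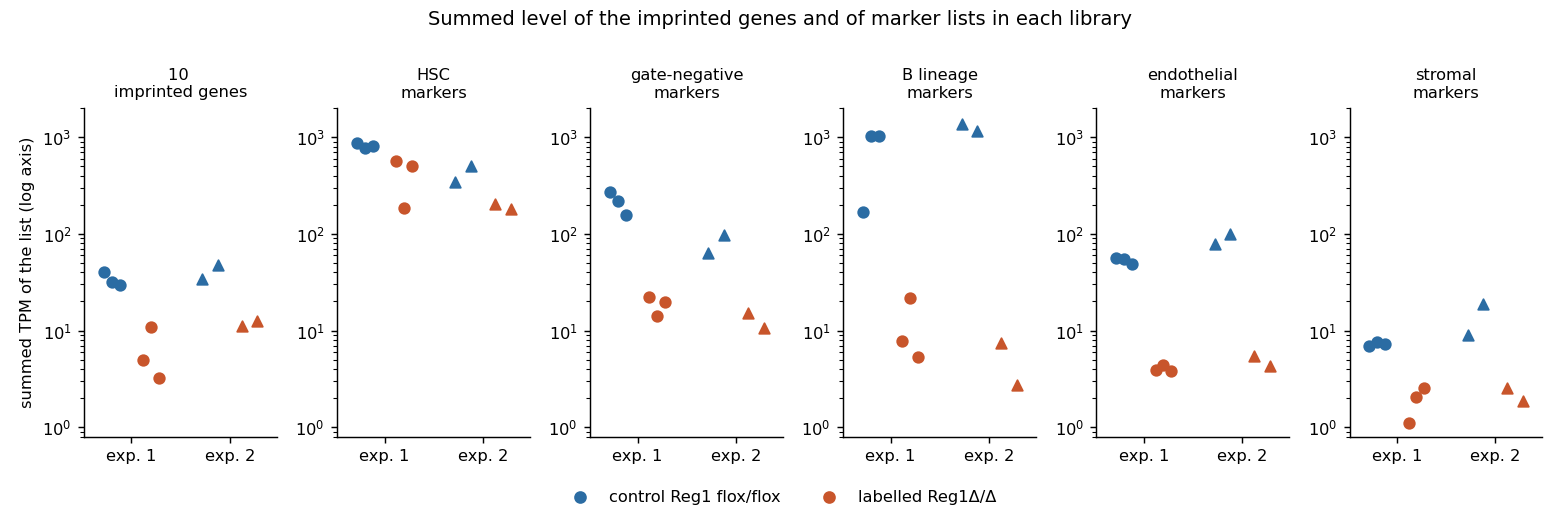
Summed TPM (log axis) of the 10 imprinted genes and of 5 marker lists in each library, for experiment 1 (circles) and experiment 2 (triangles). The imprinted genes sum to 29.7 to 47.9 TPM in the controls and 3.20 to 12.5 TPM in the libraries labelled Reg1Δ/Δ, and each of the 5 marker lists is also lower in the libraries labelled Reg1Δ/Δ within each experiment. The erythroid list, whose sum was higher in both experiments, and the cell cycle list are not drawn.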

How the data were processed

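RNA of sorted CD34- HSCs from 5 control and 5 Reg1Δ/Δ samples was used. The authors amplified it with a SMART-Seq kit, made Nextera XT libraries, mapped reads to GRCm38 with STAR and quantified GENCODE transcripts with Salmon 0.9.1 (submitters' processing notes). The deposited values are log2(TPM + 1) of each transcript, made by the authors. TPM was recovered and added up per gene. TPM keeps no depth, so no count test could be run. The members and gene lists were chosen with earlier results of these data known.

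Testing used limma 3.58.1 (R 4.3.3) on log2(TPM + 1) for genes that reached 1 TPM in 5 or more of the 10 libraries, with the experiment as covariate, Benjamini-Hochberg adjustment over all genes tested and a threshold of 0.05. The script was tested on simulated data. Experiments were taken from the sample names. In 1 library labelled Reg1Δ/Δ of the second experiment, the header carried the name of the other, but its values differed from it. Coordinates are from a later GENCODE release on the same build, and sequences from RefSeq (GRCm38.p6).

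Named genes were the 10 members, Zc3h12a, the 6 other imprinted genes per direction with the largest called change and at least 5 TPM in the higher group, tested neighbours within 500 kb, fixed genes of imprint maintenance and IGF signalling, and the 2 genes most like each tested member.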

Additional observations from a re-analysis of the deposited data

How the results depend on the processing

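Depth is unknown, and genes near 1 TPM depend on the filter. The number of members called was 7 without a filter, 5 with a mean of at least 0.5 TPM (chosen after seeing the data), 5 each after rescaling to protein-coding and lncRNA genes or leaving out retained-intron and NMD transcripts (Igf2 and Dlk1 joined), and 1 with at least 1 TPM in every library. The number of members tested limits these counts. Among all genes, 5592 of 33393 were lower without a filter and 5672 of 16359 with the filter on the mean. With at least 1 TPM in every library 3318 of 9412 were lower. After the rescaling 5164 of 12137 were lower, and without retained-intron and NMD transcripts 4593 of 12802. The same strict filter gave 11 other imprinted genes, and the second experiment alone 6, with 2033 genes called in all; without the experiment covariate 3768 were called. Grb10 kept direction and call in 22 of 23 settings, at log2 fold changes of -1.63 to -0.83. Signs turned for Trim28 (-0.0055 in the second experiment alone, -0.042 with quantile normalization), Zpbp (0.42 with quantile normalization), Mrpl23 (-0.014 in the first experiment alone) and, with median-of-ratios scaling, Dnmt1 (0.11), Uhrf1 (0.12) and Ctsd (0.29). The cause was not tested. Over 31 named genes and 702 comparisons with other settings, 638 kept direction and call, 52 lost and 5 gained it.

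Whether the replicate numbers pair the libraries is not known. Deviations of same-numbered libraries from their group means correlated at 0.033, 0.18 and 0.068 in the first experiment. In the second they gave -0.054, a single value, since 2 libraries deviate equally from their mean in opposite directions. A block for the replicate number gave 6248 called genes (1703 higher, 4545 lower) in place of 6813, with all 3 members among them, and 19 other imprinted genes in place of 20, while the call of Zc3h12a was lost (limma adjusted p = 0.0505).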

Other observations

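Of 27 other imprinted genes that were in the files but below the filter, 5 had every library labelled Reg1Δ/Δ below every control of its experiment, a share near the 16.5% of all genes, and 22 did not. The 5 are Mkrn3, Snrpn, Mest, Qpct and Kcnq1ot1, named after their values were seen. Mkrn3, a paternally expressed zinc finger gene 71.0 kb from Ndn, had 0.711 to 1.71 TPM in the controls and at most 0.202 TPM in the libraries labelled Reg1Δ/Δ. Snrpn, a splicing protein gene of the same imprinted region, had 0.789 to 2.47 TPM in the controls and at most 0.0261 TPM in the libraries labelled Reg1Δ/Δ. Mest, a paternally expressed hydrolase gene, ranged from 0.236 to 0.683 TPM in the experiment 1 controls and had 5.90 and 2.85 TPM in those of experiment 2, with at most 0.556 TPM in the libraries labelled Reg1Δ/Δ. Qpct, from the maternal copy, had 0.207 to 1.34 TPM in the controls and at most 0.131 TPM in the libraries labelled Reg1Δ/Δ.

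Some imprinted transcripts were high in 1 experiment alone. Snurf, with a transcript of 216 bases, was at 11.8, 15.8 and 6.46 TPM in the experiment 1 controls and was listed at 0 in the other 7 libraries. Snhg14 lies beside Snrpn on the same strand and overlaps Ube3a on the opposite strand. It had 465 to 618 TPM in the controls and 970 to 1020 TPM in the libraries labelled Reg1Δ/Δ of the first experiment. Nearly all of this came from a transcript of 294 bases. In the second experiment it had 0.112 to 0.831 TPM. The microRNA gene Mir1906-1 inside Meg3 was listed at 15.5 TPM in 1 control and at 0 in the other 9 libraries.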
